A study of Mus musculus with 3 samples.

Results

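Matrix metalloproteinases (Mmp genes), their tissue inhibitors (Timp genes) and the related ADAM and ADAMTS proteases were followed in mouse kidney during nephrotoxic serum nephritis. Members were all genes whose platform symbol is Mmp, Timp, Adam or Adamts followed by a number and at most 1 further letter and which had a probe set assigned to that gene alone. This rule took 78 of 19938 genes, measured by 102 of 35556 probe sets, and held 22 Mmp, 4 Timp, 34 Adam and 18 Adamts genes. It used symbols and no measured values.

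The arrays were Affymetrix Mouse Gene 1.0 ST arrays, which read a transcript through probes along its exons, and values are log2 values after RMA normalization. All mice were female, of the strain written CBL/6 in the labels and 8 to 10 weeks old. The NTS/PGE2 group received sheep nephrotoxic serum, an antiserum that injures the glomerulus, in a single injection of 13.5 ug per g of body weight, and then 5 ug per g of prostaglandin E2 (PGE2) daily from day 2. The NTS group had the serum alone, the control group had no treatment, and treated mice were killed on day 7. There was 1 array for each of the 3 groups, the labels do not say whether an array holds RNA of 1 mouse or of several, and the labels name no separate vehicle group. No difference below therefore has a replicate check, no test was run, and statements of size compare these 3 arrays. In whole kidney, fewer cells of a type and less RNA per cell cannot be told apart.

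MMPs are zinc-dependent enzymes, mostly secreted as inactive precursors, that cut collagens, basement membrane and other extracellular proteins. TIMPs bind their active site and inhibit them. ADAMs are membrane proteins, several of which release the outer part of growth factors, cytokines and receptors from the cell surface, while many others are restricted to testis. ADAMTS enzymes are secreted and cut proteoglycans, procollagens or von Willebrand factor. In the kidney these enzymes and inhibitors are studied in matrix turnover after tubular and glomerular injury.

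Nearly all of the differences among the members lay in a few genes. Timp1 and Mmp7 were many-fold higher in NTS kidney than in control kidney, and in NTS/PGE2 kidney both lay within 0.43 of the control value on the log2 scale. Mmp14 was likewise highest in NTS kidney, with a smaller difference. Timp4 was lower on both treated arrays than in control kidney. Timp3, Adamts1 and Adam4 differed by less than 2-fold, and the other 71 members had a range over the 3 arrays under 0.58 on the log2 scale, which is 1.5-fold.

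The medians of all probe sets were 7.14 in NTS/PGE2 kidney, 7.11 in NTS kidney and 7.11 in control kidney. A member below its array's median is called dim here; 53 of the 78 members were dim on all 3 arrays, 21 lay at or above the median on all 3 and 4 passed it on some. On all 3 arrays 28 members, 35.9% of them, had exactly equal values, against 29.1% of all genes. The median polish step of RMA can return equal values for small differences, so an equal value does not show that a transcript was unchanged. For 447 genes read by 2 bright probe sets, the SD of a single probe set's difference was 0.19 for NTS/PGE2 minus NTS, 0.12 for NTS/PGE2 minus control and 0.19 for NTS minus control, all on the log2 scale. That spread is between probe sets and leaves out the spread between mice.

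Markers of proximal tubule, loop and distal tubule, collecting duct, podocyte and endothelium were bright in NTS/PGE2 kidney and in control kidney. In NTS kidney all of them were bright except Pvalb of the distal tubule, at 5.81, and Aqp4 of the collecting duct, at 7.00. All 10 proximal tubule markers were lower in NTS kidney, with a log2 summed level of 16.01 in NTS/PGE2 kidney, 14.37 in NTS kidney and 15.96 in control kidney. The control array also held fat, urothelium and smooth muscle transcripts at a higher level than both treated arrays. Their values stand beside the members they moved with.

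The promoter sequences are shown first for a run of Mmp genes that lie side by side on chromosome 9, since Mmp7 belongs to it. RefSeq promoters of build GRCm38.p6, from 250 bases before to 50 after the annotated start, were matched to 48 of the 78 members (53 promoters). Matches were searched on both strands to TGANTCA, the letters bound by AP-1 (dimers of Fos and Jun proteins), to TATAAA, the TATA box, to TGACG directly followed by TCA, the cAMP response element, and to TTC followed after 3 bases by GAA, bound by STAT proteins. In the run, 10 protein-coding genes follow each other in the order Mmp13, Mmp12, Mmp1b, Mmp3, Mmp1a, Mmp10, Mmp8, Mmp27, Mmp20 and Mmp7, and 8 of them hold both the AP-1 and the TATA motif in a promoter. Mmp7 and Mmp12 each have a further annotated promoter that holds neither motif and is not shown. The 8 stretches run from position -110 to 10 around the start, 5′ to 3′ on the gene's strand, with both motifs in capitals.
Mmp7 (chr9:7691980-7692099, plus strand): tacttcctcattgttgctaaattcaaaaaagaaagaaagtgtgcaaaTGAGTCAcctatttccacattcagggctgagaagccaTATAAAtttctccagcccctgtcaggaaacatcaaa
Mmp20 (chr9:7628121-7628240, plus strand): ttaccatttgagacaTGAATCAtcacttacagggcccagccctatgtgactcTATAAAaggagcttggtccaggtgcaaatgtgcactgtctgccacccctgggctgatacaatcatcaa
Mmp10 (chr9:7502232-7502351, plus strand): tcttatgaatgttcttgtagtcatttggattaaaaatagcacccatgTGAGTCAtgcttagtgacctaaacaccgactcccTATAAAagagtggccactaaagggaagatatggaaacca
Mmp1a (chr9:7464031-7464150, plus strand): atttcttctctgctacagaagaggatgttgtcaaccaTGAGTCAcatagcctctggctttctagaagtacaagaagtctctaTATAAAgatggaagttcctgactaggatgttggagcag
Mmp3 (chr9:7445712-7445831, plus strand): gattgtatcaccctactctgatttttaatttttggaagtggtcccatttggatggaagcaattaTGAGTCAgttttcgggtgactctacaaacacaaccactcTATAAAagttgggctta
Mmp1b (chr9:7388017-7388136, minus strand): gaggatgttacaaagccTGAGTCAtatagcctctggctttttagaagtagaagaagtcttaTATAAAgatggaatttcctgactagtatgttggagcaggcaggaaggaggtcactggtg
Mmp12 (chr9:7347264-7347383, plus strand): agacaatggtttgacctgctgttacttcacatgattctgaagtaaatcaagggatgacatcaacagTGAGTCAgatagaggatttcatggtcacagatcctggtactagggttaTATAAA
Mmp13 (chr9:7272404-7272523, plus strand): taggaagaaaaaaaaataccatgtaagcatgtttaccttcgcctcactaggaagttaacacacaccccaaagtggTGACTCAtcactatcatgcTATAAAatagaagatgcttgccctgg

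The AP-1 letters begin at position -63 in Mmp7, at -63 in Mmp10, at -73 in Mmp1a and at -35 in Mmp13, counted from the annotated start of the promoter shown. Mmp8 has the TATA letters alone and Mmp27 has neither in this window. TGANTCA was found in 24.5% of the members' promoters and in 7.81% of all 32851 promoters of the table, and TATAAA in 28.3% of the members' and 13.6% of all. The cAMP response element was in 0 of the members' promoters and 588 of all, and the STAT letters were in 9.43% of the members' and 8.3% of all. Outside the run, 5 of 38 members with a promoter held the AP-1 letters and 6 the TATA letters. These are matches of letters, not binding sites measured in this study.

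Timp1, on chromosome X, had the largest difference of all members, and its promoter is shown whole for comparison with Mmp7, the member next in size. It holds neither the AP-1 nor the TATA letters as searched, which says only that these exact letters are not in this window. The stretch tgagtaa near its end is close to TGANTCA but was not counted as a match.
Timp1 (chrX:20869916-20870215, plus strand): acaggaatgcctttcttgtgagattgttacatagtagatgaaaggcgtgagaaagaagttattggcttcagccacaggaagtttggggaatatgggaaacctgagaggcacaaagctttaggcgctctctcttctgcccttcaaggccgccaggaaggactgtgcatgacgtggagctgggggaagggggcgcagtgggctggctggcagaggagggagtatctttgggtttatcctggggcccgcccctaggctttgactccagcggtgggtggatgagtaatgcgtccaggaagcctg

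The inhibitors differed in direction. Timp1, an inhibitor that is known to be made in injured and inflamed tissue, read 6.27 in NTS/PGE2 kidney, 9.99 in NTS kidney and 6.70 in control kidney. It was bright in NTS kidney alone and dim on the other two. NTS/PGE2 minus NTS was -3.72, or 13.2-fold lower, NTS/PGE2 minus control was -0.43, and NTS minus control was 3.29, or 9.78-fold higher.

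Timp3, an inhibitor bound to the extracellular matrix that also blocks ADAM17, was bright throughout. Its log2 value was 12.88 in NTS/PGE2 kidney, 12.12 in NTS kidney and 12.99 in control kidney. The NTS array was thus the lowest, by 0.76 below NTS/PGE2 and at -0.87 against control, a 1.83-fold lower value. Endothelium markers were lower in NTS kidney too, 8 of 8 of them, with a median difference of -1.72 and a log2 summed level of 13.46 in NTS/PGE2 kidney, 12.02 in NTS kidney and 13.66 in control kidney. Tubule markers were lowest in NTS kidney as well, though their summed levels were highest in NTS/PGE2 kidney and not in control kidney. For NTS minus control, 10 of 10 of the proximal tubule were lower (median -1.48), 6 of 6 of the loop and distal tubule (median -1.64) and 6 of 6 of the collecting duct (median -1.16). The loop and distal tubule summed log2 level was 15.30 in NTS/PGE2 kidney, 14.32 in NTS kidney and 15.11 in control kidney, and that of the collecting duct was 12.59 in NTS/PGE2 kidney, 11.44 in NTS kidney and 12.46 in control kidney. The part of these cells in the Timp3 difference was not tested. Timp2, which takes part with the membrane protease MMP14 in the activation of MMP2, read 9.90 in NTS/PGE2 kidney, 9.70 in NTS kidney and 10.06 in control kidney. Its order was that of Timp3, with a smaller difference of -0.35 for NTS against control.

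Timp4, an inhibitor known from heart and fat, was the only member with a 2-fold difference of NTS/PGE2 from control. It read 6.48 in NTS/PGE2 kidney, 6.13 in NTS kidney and 7.52 in control kidney. Both treated arrays were dim for it, and the control array was bright. It was 2.07-fold lower in NTS/PGE2 kidney than in control kidney (-1.05) and 2.63-fold lower in NTS kidney (-1.39), while NTS/PGE2 stood 0.35 above NTS.

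Most fat markers differed in the same direction as Timp4. Of 11 listed fat markers, 8 were at least 2-fold lower in NTS/PGE2 kidney (median -1.98) and 9 in NTS kidney (median -2.86), each set against control kidney. Of all genes whose higher value reached its array's median, 0.659% were so for NTS/PGE2 and 5.42% for NTS. In each comparison 10 of the 11 fat markers reached it. Their summed level on the log2 scale was 12.39 in NTS/PGE2 kidney, 11.58 in NTS kidney and 14.21 in control kidney. The brown fat gene Ucp1 read 5.91 in NTS/PGE2 kidney, 5.72 in NTS kidney and 11.84 in control kidney. Pparg, the fat cell transcription factor whose gene is a coding neighbour of Timp4 on chromosome 6, read 7.58 in NTS/PGE2 kidney, 7.57 in NTS kidney and 8.78 in control kidney. Lep, which is specific to fat, was dim on all 3 arrays. Smooth muscle markers were also lower than in control kidney, 6 of 6 on each treated array, with medians of -0.87 for NTS/PGE2 and -0.90 for NTS, and urothelium markers had medians of -1.52 for NTS/PGE2 and -1.24 for NTS over 8 genes. The smooth muscle summed log2 level was 11.17 in NTS/PGE2 kidney, 11.24 in NTS kidney and 12.16 in control kidney. For urothelium it was 9.82 in NTS/PGE2 kidney, 10.38 in NTS kidney and 11.76 in control kidney. The part of these tissues in the Timp4 difference was not tested.

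**Figure D1:**
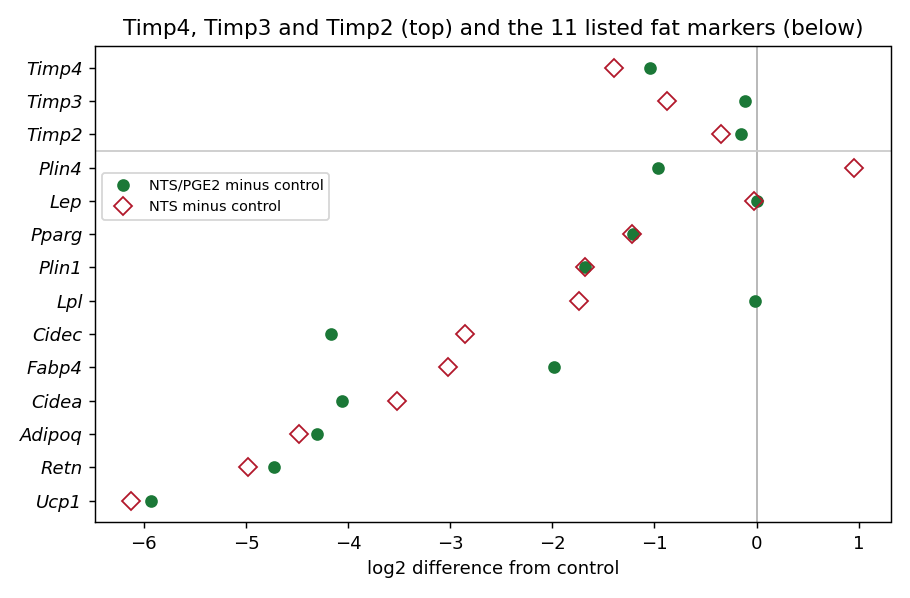
Log2 difference from the control array (horizontal axis) of Timp4, Timp3 and Timp2 and of 11 fat markers (rows); filled circles are NTS/PGE2 minus control and open diamonds NTS minus control, 1 array each. Timp4 lies at -1.05 for NTS/PGE2 and -1.39 for NTS, and Ucp1 at -5.93 for NTS/PGE2 and -6.12 for NTS.

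Among the secreted MMPs Mmp7 stood alone. Mmp7, or matrilysin, is an epithelial enzyme without the hemopexin domain of most MMPs and cuts E-cadherin and matrix proteins. It read 6.53 in NTS/PGE2 kidney, 8.67 in NTS kidney and 6.10 in control kidney, so it was bright in NTS kidney alone. The value in NTS/PGE2 kidney was 4.41-fold below NTS (-2.14) and stayed 1.35-fold above control (0.43). The value in NTS kidney was 5.96-fold above control (2.57). Mmp7 is made by epithelium, and the proximal tubule markers above were lowest where it was highest. Cell cycle markers were highest in NTS kidney, as Mmp7 and Timp1 were: 7 of 7 were lower for NTS/PGE2 minus NTS (median -2.30) and 7 of 7 higher for NTS minus control (median 2.37), with a log2 summed level of 9.32 in NTS/PGE2 kidney, 11.45 in NTS kidney and 9.09 in control kidney. The part of tubule cells or of dividing cells in the differences of Mmp7 and Timp1 was not tested.

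The 9 other genes of the chromosome 9 run were dim on all 3 arrays, with log2 values between 4.11 and 6.39, and 4 of them lay below the 25th percentile of every array. Their largest range over the arrays was 0.31, in the collagenase gene Mmp13, which read 6.39 in NTS/PGE2 kidney, 6.08 in NTS kidney and 6.39 in control kidney. The stromelysin gene Mmp3 read 5.97 in NTS/PGE2 kidney, 5.97 in NTS kidney and 5.73 in control kidney, and Mmp10 read 5.93 on each. The 7 genes with the same pair of promoter motifs as Mmp7 are among these dim genes, and none had a difference of 1.5-fold on these arrays. No relation between the motifs and the values was tested. Mmp1a and Mmp1b are close copies, so their separate values are uncertain.

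**Figure D2:**
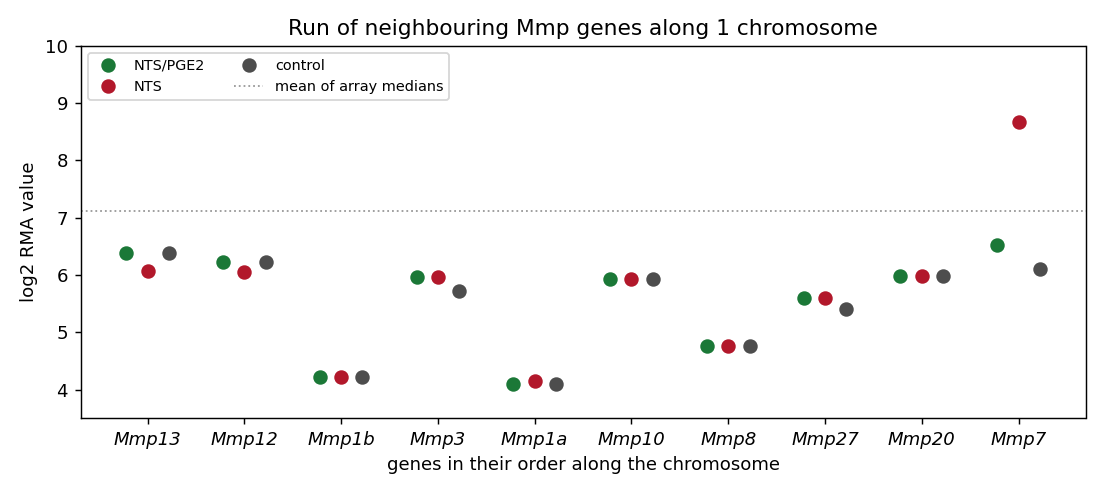
Log2 value (vertical axis) of the 10 neighbouring Mmp genes of chromosome 9 in their order along it, with 1 point for each array and a dotted line at the mean of the array medians. Mmp7 in NTS kidney, at 8.67, is the only point above the line; the other 9 genes lie between 4.11 and 6.39.

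Gelatinases, which cut denatured collagen and basement membrane collagen, were level. Mmp2 read 7.80 in NTS/PGE2 kidney, 7.91 in NTS kidney and 7.85 in control kidney. Mmp9, which neutrophils and macrophages store or make, read 6.43 in NTS/PGE2 kidney, 6.41 in NTS kidney and 6.43 in control kidney and was dim throughout. All 10 neutrophil markers were dim on all 3 arrays as well, with log2 summed levels of 9.32 in NTS/PGE2 kidney, 9.29 in NTS kidney and 9.29 in control kidney, and Mmp8, the neutrophil collagenase, read 4.75 on each array. The macrophage elastase gene Mmp12 read 6.24 in NTS/PGE2 kidney, 6.05 in NTS kidney and 6.24 in control kidney. Macrophage markers went both ways between NTS and control, with 3 of 9 at least 2-fold higher and 2 at least 2-fold lower. Of all genes whose higher value reached its array's median, 2.7% were at least 2-fold higher and 5.42% lower. The macrophage log2 summed levels were 11.46 in NTS/PGE2 kidney, 12.15 in NTS kidney and 11.83 in control kidney. Macrophages also make Timp1 and Mmp14, and the part of these cells in the members' differences was not tested.

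Of the 5 measured membrane-type MMPs, which are anchored in the cell surface, Mmp14 alone was bright. Mmp15, also of this type, is not among the members, so its level is not known here. Mmp14 encodes MT1-MMP, which cuts fibrillar collagen around the cell and activates the MMP2 precursor. It read 7.88 in NTS/PGE2 kidney, 9.0 in NTS kidney and 8.10 in control kidney. NTS/PGE2 was 2.17-fold below NTS (-1.11), at -0.22 against control, and NTS was 1.86-fold above control (0.89), just short of 2-fold. The other 4 measured genes of this group, Mmp16, Mmp17, Mmp24 and Mmp25, were dim and had a range of at most 0.20. Mmp2, whose product MT1-MMP activates, had 0.06 for NTS minus control. The 8 stroma markers had a log2 summed level of 12.10 in NTS/PGE2 kidney, 11.92 in NTS kidney and 12.64 in control kidney. They went both ways: Col1a1, Col1a2 and Col3a1 were highest in NTS kidney, as Mmp14 was, while Dcn, Lum, Pdgfra and Pdgfrb were lowest there and Postn was lower in both treated kidneys than in control kidney. The part of stroma in the Mmp14 difference was not tested.

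The remaining MMPs showed little. Mmp23 read 7.81 in NTS/PGE2 kidney, 8.02 in NTS kidney and 7.86 in control kidney. Mmp28, or epilysin, read 7.47 in NTS/PGE2 kidney, 7.24 in NTS kidney and 7.47 in control kidney. Mmp11, or stromelysin-3, read 7.58 in NTS/PGE2 kidney, 7.42 in NTS kidney and 7.68 in control kidney. Mmp19, Mmp20, Mmp21 and Mmp27 were dim on all 3 arrays. None of these 7 genes had a range over 0.26.

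**Figure D3:**
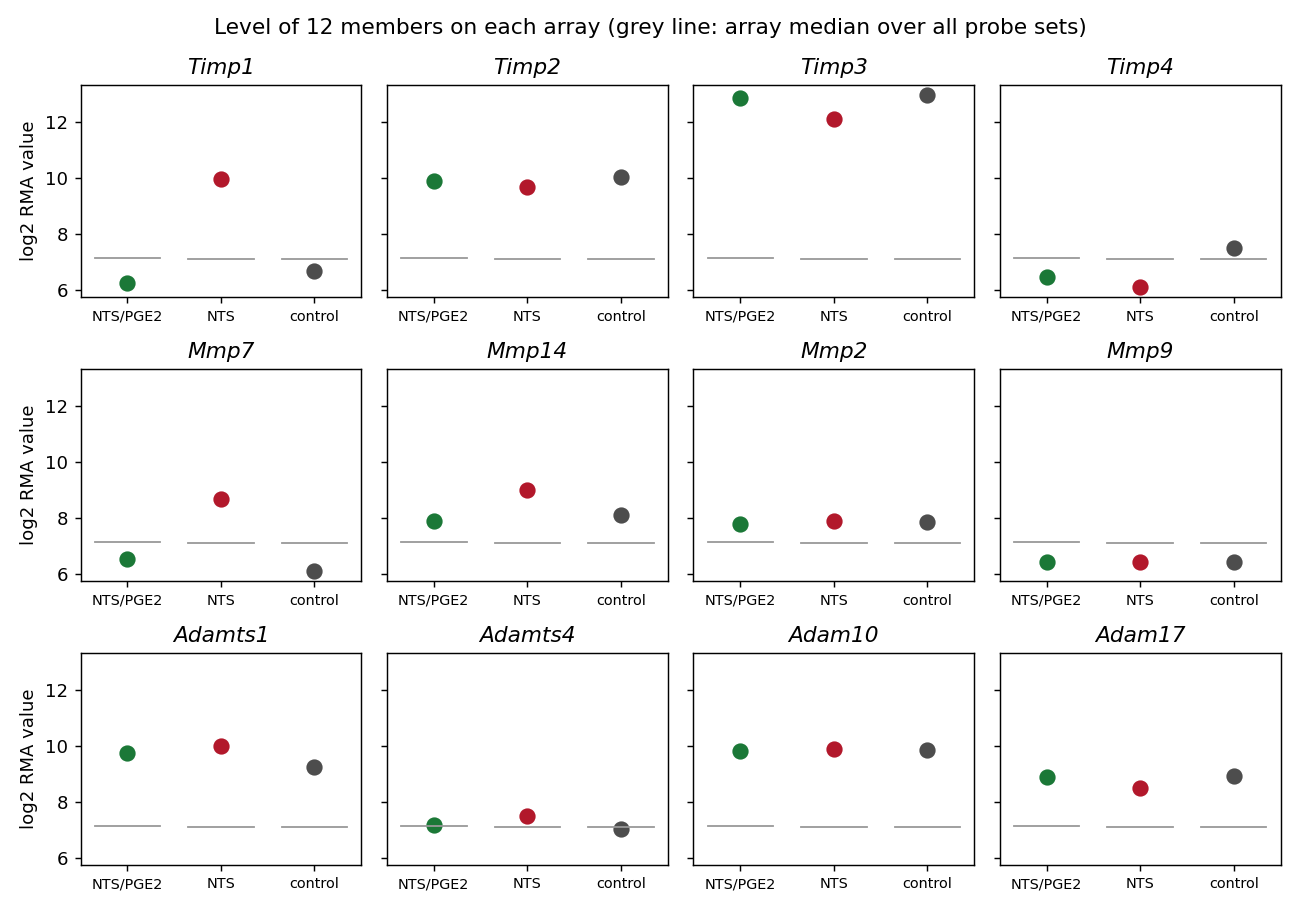
Log2 value (vertical axis) of 12 members on the NTS/PGE2, NTS and control arrays (horizontal axis), 1 point an array, with a grey line at each array's median over all probe sets. Timp1, Mmp7 and Mmp14 peak in NTS kidney, Timp3 is lowest there, Timp4 is highest in control kidney, and Mmp2, Mmp9 and Adam10 are level.

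Among the ADAM proteases of somatic tissues, Adam9, Adam10, Adam15 and Adam17 were the bright ones, with Adam33 just above the array medians at 7.25 on each array. Adam10, a sheddase of Notch receptors and cadherins, read 9.83 in NTS/PGE2 kidney, 9.89 in NTS kidney and 9.85 in control kidney. Adam9 read 10.88 in NTS/PGE2 kidney, 10.81 in NTS kidney and 10.88 in control kidney, and Adam15 read 10.15 in NTS/PGE2 kidney, 10.19 in NTS kidney and 10.06 in control kidney. These 3 genes had ranges under 0.25.

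Adam17, which releases TNF and EGF receptor ligands, was lower in NTS kidney. It read 8.88 in NTS/PGE2 kidney, 8.49 in NTS kidney and 8.91 in control kidney. The difference was 0.39 for NTS/PGE2 minus NTS and -0.42 for NTS minus control, or 1.34-fold lower, under the size rule but above the probe set spread of 0.19. That spread leaves out the spread between mice, so it does not tell whether this difference would recur. Adam8, an ADAM of leukocytes, was dim and read 6.80 in NTS/PGE2 kidney, 6.80 in NTS kidney and 6.60 in control kidney, and Adam12, Adam19 and Adam28 were dim with ranges of at most 0.01.

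Adam11, Adam22 and Adam23, which lack protease activity and are known from brain, had ranges up to 0.28. Adam11 read 7.25 in NTS/PGE2 kidney, 7.53 in NTS kidney and 7.25 in control kidney. The other 22 Adam genes are mostly known from testis and epididymis. Of these, 21 were dim on all 3 arrays, 17 lay below the 25th percentile of each array and 16 had exactly equal values. All 6 testis markers were dim as well, with log2 summed levels of 8.81 in NTS/PGE2 kidney, 8.80 in NTS kidney and 8.79 in control kidney. The largest range was in Adam4, at 7.04 in NTS/PGE2 kidney, 6.18 in NTS kidney and 6.94 in control kidney, all dim values. Adam1a and Adam1b, Adam6a and Adam6b, Adam26a and Adam26b, and Adam34 and Adam34l are close copies, so their separate values are uncertain.

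ADAMTS genes gave small differences. Adamts1, which cuts versican and aggrecan, read 9.74 in NTS/PGE2 kidney, 10.01 in NTS kidney and 9.26 in control kidney. Its NTS value was 1.68-fold above control (0.75), and its NTS/PGE2 value was 1.40-fold above control (0.49) and only 0.26 below NTS. In NTS/PGE2 kidney Adamts1 thus lay nearer to the NTS value than to the control value, unlike Timp1, Mmp7 and Mmp14. Adamts4, another aggrecanase, read 7.18 in NTS/PGE2 kidney, 7.50 in NTS kidney and 7.04 in control kidney.

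Adamts5, the neighbour of Adamts1 on chromosome 16 and likewise a proteoglycanase, stood the other way. It read 7.69 in NTS/PGE2 kidney, 7.56 in NTS kidney and 7.94 in control kidney, with -0.38 for NTS against control. Adamts8 was dim at 6.59 in NTS/PGE2 kidney, 6.62 in NTS kidney and 6.18 in control kidney, about as high on both treated arrays. Adamts9, read by 6 probe sets, averaged 8.46 in NTS/PGE2 kidney, 8.33 in NTS kidney and 8.48 in control kidney.

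The rest of the family stayed within 0.31 on the log2 scale over the arrays. Adamts6 had the largest range among them and read 8.18 in NTS/PGE2 kidney, 8.48 in NTS kidney and 8.26 in control kidney. Adamts13, the von Willebrand factor protease, was dim and read 6.58 on each array. The procollagen N-proteinase genes Adamts3 and Adamts14 were dim too, with ranges of 0.12 and 0. Adamts2, also of this group, is not among the members, so its level is not known here. Adamts7, Adamts10 and Adamts16 were bright, and Adamts12, Adamts15, Adamts17, Adamts18, Adamts19 and Adamts20 were dim.

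**Figure D4:**
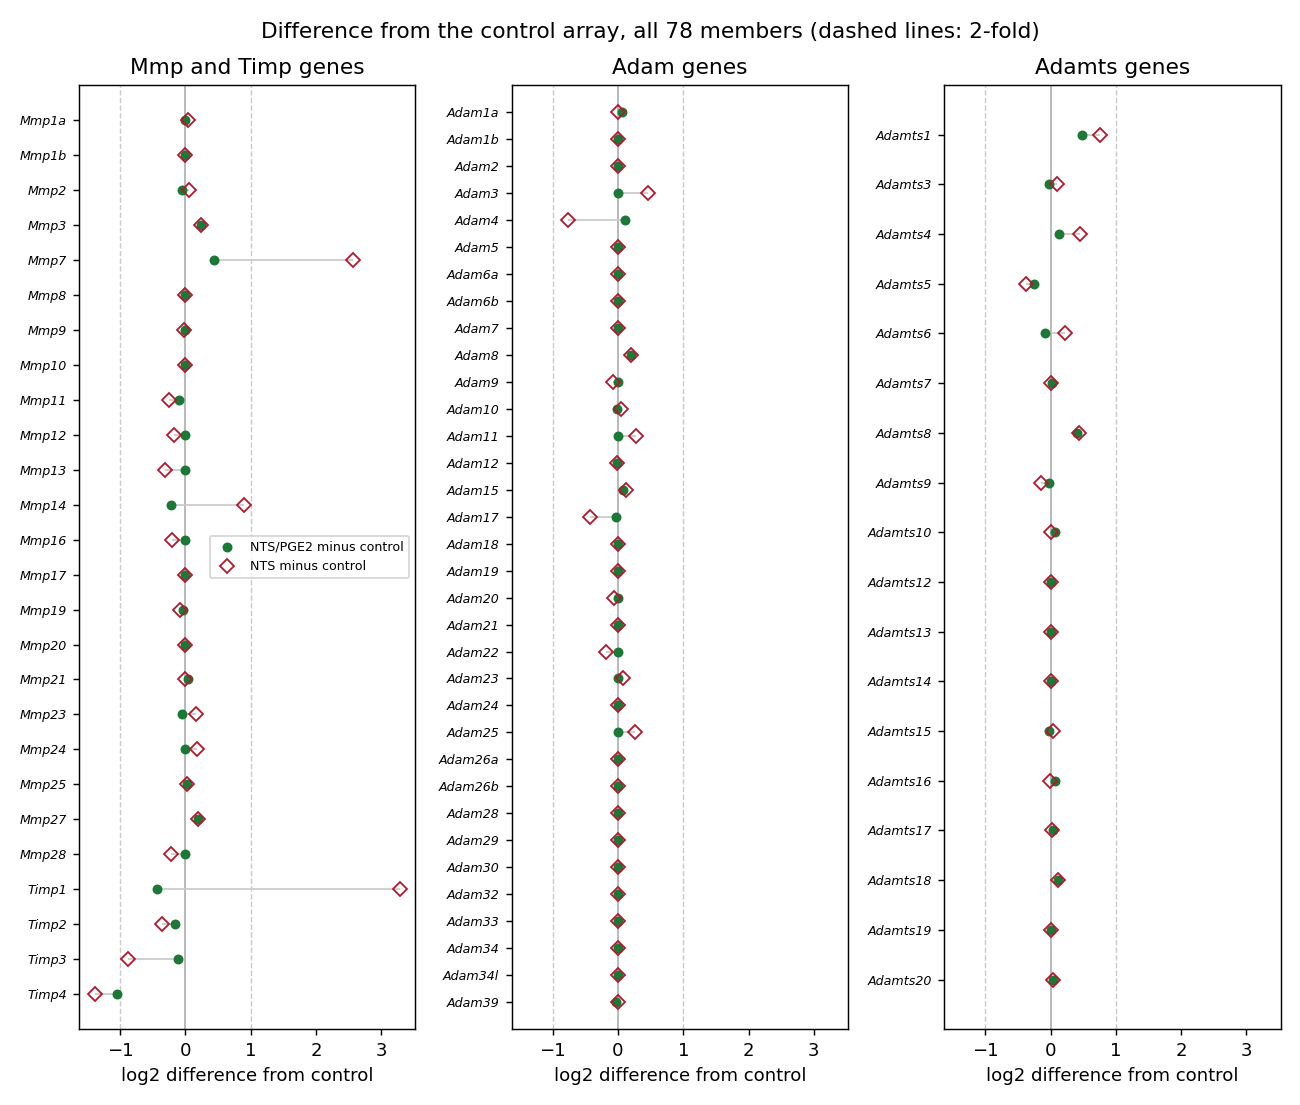
Log2 difference from the control array (horizontal axis) for all 78 members (rows) in 3 panels; filled circles are NTS/PGE2 minus control, open diamonds NTS minus control, and dashed lines mark 2-fold. Most members lie at or near 0, and the widest gaps between the symbols are those of Timp1 and Mmp7.

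The 3 comparisons were then counted by the same size rule for members and for all genes, a log2 difference of at least 1 with the higher value at or above its array's median. For NTS/PGE2 against NTS, 24 members were bright enough, of which 0 were at least 2-fold higher, against 4.15% of all genes, and 3 (12.5%) at least 2-fold lower, against 3.28%. The 3 were Timp1, Mmp7 and Mmp14. At 1.5-fold, 1 member (Timp3) was higher, against 10.1% of all genes, and the same 3 were lower, against 9.07%. The largest positive differences were those of Adam4, which was too dim to count, and Timp3 at 0.76.

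For NTS/PGE2 against control, 23 members were bright enough. Of these, 0 were at least 2-fold higher, against 0.0607% of all genes, and 1 (4.35%), Timp4, at least 2-fold lower, against 0.659%. At 1.5-fold the counts were again 0 higher, against 0.572% of all genes, and 1 lower, against 2.17%. Adamts1 was the highest bright member at 0.49.

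For NTS against control, 25 members were bright enough. The 2 (8%) at least 2-fold higher were Timp1 and Mmp7, against 2.7% of all genes, and the 1 (4%) at least 2-fold lower was Timp4, against 5.42%. At 1.5-fold, 4 (Timp1, Mmp7, Mmp14 and Adamts1) were higher, against 7.7%, and 2 (Timp3 and Timp4) lower, against 12.0%. Timp1 and Mmp7 passed the brightness filter only through the NTS array, where they are high, and Timp4 only through the control array. The median difference was 0 for the members and 0 for all genes in each of the 3 comparisons. With at most 4 genes behind each count, the shares describe these genes and no property of the families. The first and the last of these comparisons share the NTS array, so a high or low value on that array enters both with opposite sign. The second and the last share the control array, whose value enters both with the same sign. The lower values of Timp4 in these comparisons thus rest on the same control reading.

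**Figure D5:**
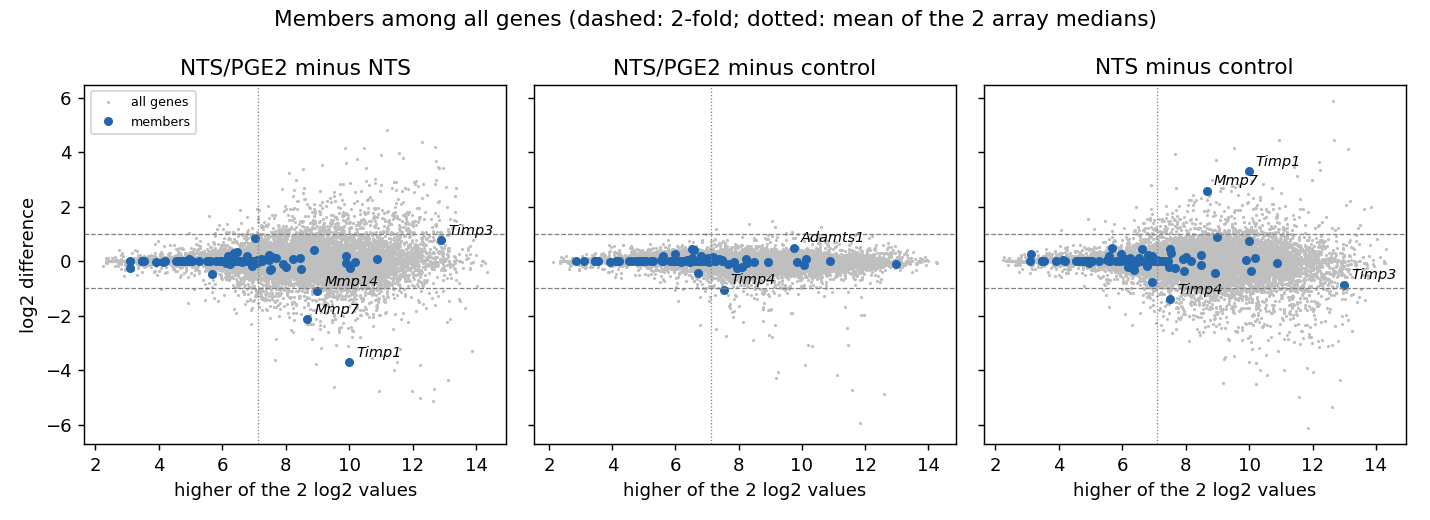
Log2 difference (vertical axis) against the higher of the 2 log2 values (horizontal axis) for all 19938 genes in grey and the 78 members in blue, 1 panel a comparison. Timp1 and Mmp7 stand outside the dashed 2-fold lines in both panels with the NTS array, and most members lie left of the dotted median line.

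Other genes of matrix proteolysis were taken from lists of known regulators, partners and substrates. Their counts are to be read against the same shares of all genes, which are shares of the genes bright enough. Of 8 measured plasminogen activation genes, 6 were bright enough. Of these, 2 were at least 2-fold higher in NTS kidney than in control kidney, against 2.7% of all genes. The same 2 were at least 2-fold lower in NTS/PGE2 kidney than in NTS kidney, against 3.28%. Plat, tissue plasminogen activator, read 9.63 in NTS/PGE2 kidney, 11.08 in NTS kidney and 9.90 in control kidney. Anxa2, a plasminogen and Plat docking protein, read 9.47 in NTS/PGE2 kidney, 11.42 in NTS kidney and 9.90 in control kidney. Plau, urokinase, read 12.32 in NTS/PGE2 kidney, 11.96 in NTS kidney and 11.82 in control kidney. Of 14 other regulators, A2m, the broad protease trap alpha-2-macroglobulin, was the only one at least 2-fold different, at 7.22 in NTS/PGE2 kidney, 8.02 in NTS kidney and 6.59 in control kidney. Reck, a membrane-anchored MMP inhibitor, read 8.33 in NTS/PGE2 kidney, 8.15 in NTS kidney and 8.39 in control kidney, and Furin, which removes the propeptide of MT-MMPs, ADAMs and ADAMTS, read 10.66 in NTS/PGE2 kidney, 10.89 in NTS kidney and 10.46 in control kidney.

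Among partners of the sheddases, none of the 9 listed ADAM10 and ADAM17 partners was 2-fold different, and the largest difference was in Rhbdf2 (iRhom2, which carries ADAM17 to the cell surface), at 7.98 in NTS/PGE2 kidney, 8.66 in NTS kidney and 7.98 in control kidney. Of 17 measured shed membrane proteins, 15 were bright enough for NTS against control. Havcr1 and Cd44 were at least 2-fold higher in NTS kidney, against 2.7% of all genes. Egf and Kl were at least 2-fold lower there, against 5.42%. NTS/PGE2 minus NTS had the opposite sign for each of the 4. Kl, which encodes klotho, read 11.76 in NTS/PGE2 kidney, 10.10 in NTS kidney and 11.60 in control kidney. Hbegf, an EGF receptor ligand, read 8.21 in NTS/PGE2 kidney, 9.02 in NTS kidney and 8.19 in control kidney.

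Some matrix substrates were higher in NTS kidney. Of 17 listed, 13 were bright enough for NTS against control. Of these, 6 were at least 2-fold higher (Col1a1, Col3a1, Col4a1, Col4a2, Fn1 and Lama5), against 2.7% of all genes, and 0 at least 2-fold lower, against 5.42%. For NTS/PGE2 against NTS 12 were bright enough, and 5 were at least 2-fold lower, against 3.28%. For NTS/PGE2 against control 1, Vcan, was at least 2-fold lower (-1.25), against 0.659%. The median difference of the list was 0 for NTS against control. Fn1, fibronectin, read 9.75 in NTS/PGE2 kidney, 11.13 in NTS kidney and 9.60 in control kidney. Vcan, the versican substrate of Adamts1, read 6.00 in NTS/PGE2 kidney, 6.67 in NTS kidney and 7.25 in control kidney. Of the metalloproteinases outside the families, the meprin subunit gene Mep1b read 10.24 in NTS/PGE2 kidney, 6.48 in NTS kidney and 9.38 in control kidney, and Mep1a read 13.23 in NTS/PGE2 kidney, 12.01 in NTS kidney and 12.95 in control kidney. Both meprins belong to the proximal tubule brush border. Of 7 ADAMTS-like genes, 0 were 2-fold different in any of the 3 comparisons.

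The 8 AP-1 subunit genes, whose proteins bind the letters marked in the promoters, had a median difference of -0.79 for NTS/PGE2 minus NTS, -0.21 for NTS/PGE2 minus control and 0.55 for NTS minus control, and against NTS kidney 6 of 8 were lower in NTS/PGE2 kidney, while 7 of 8 were higher in NTS kidney than in control kidney. Fosl2 read 8.48 in NTS/PGE2 kidney, 9.88 in NTS kidney and 8.64 in control kidney. Junb read 7.94 in NTS/PGE2 kidney, 9.07 in NTS kidney and 8.21 in control kidney. Of all 19938 genes, 5837 were lower for NTS/PGE2 minus NTS and 6540 higher for NTS minus control. Fos was highest in control kidney, at 7.34, and Fosb in NTS/PGE2 kidney, at 7.90. Fosl2, Junb and Mmp7 were each highest in NTS kidney, and no relation between AP-1 genes and Mmp7 was tested.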

How the data were processed

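Values are the log2 values that the authors deposited in the series table. The submitters' processing notes name RMA and Affymetrix Expression Console, while neither version nor build is given in the sources used here. This method corrects background, equalises arrays and summarises probes by median polish. No scanner values were analysed here, so no probe was set against its background. Of 35556 probe sets, 21789 had 1 symbol, 1621 several and 12146 none; 2 probe sets shared by several genes were left out. Gene identifiers matched a GRCm38.p6 table for all 102 member probe sets and altered 0 symbols. Probe sets of a gene were averaged.

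Groups came from sample titles, with 1 array each, so no test was run; differences of at least 1 on the log2 scale were counted where the higher value reached its array's median. The calculation was tested on simulated data. Members, roles, gene lists, motifs and alternatives were chosen with earlier results of these data known. Named members were those past the size rule, the Timp genes, 8 fixed genes and the 15 largest bright differences per comparison; of the other lists, up to 4 genes and those past the rule. Alternatives changed the filter, the size rule, the probe set rule and the scaling. Promoters were RefSeq's, build GRCm38.p6. Python 3.11.15, numpy 2.4.6, pandas 2.3.3 and matplotlib 3.10.9 were used.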

Additional observations from a re-analysis of the deposited data

How the results depend on the processing

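With 1 array per group there is no replicate spread, and the number of arrays limits every value; no array could be left out. No paired analysis was possible because each group has 1 array and no test was run. For NTS against control, a filter at the 75th percentile left 1 member at least 2-fold higher and 0 lower, in place of 2 and 1, and at 1.5-fold in place of 2-fold the counts were 4 and 2. For NTS/PGE2 against NTS that filter left 2 lower in place of 3, without Mmp7, and for NTS/PGE2 against control it left 0 lower in place of 1, since Timp4 is not bright enough, and for NTS/PGE2 against NTS the 1.5-fold rule gave 1 higher in place of 0, which is Timp3. Without a filter, with a filter at the 25th percentile, with the brightest probe set of a gene, with centring on bright genes and with quantile normalization the counts were within 1.5 times. All 216 differences of named members under the last 3 of these settings moved by less than the probe set spread, and 0 changed direction past 2-fold. For the first 2 of these 3 settings this was nearly fixed beforehand. Of the named members Adamts9 alone had several probe sets, so the brightest probe set could move no other. Centring adds the same shift to all differences of a comparison, at most 0.037, which is below that spread.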

Other observations

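The 3 members with several probe sets show how far 1 gene's readings vary. Adamts9 had 6 probe sets. One of them read 8.93 in NTS/PGE2 kidney, 8.26 in NTS kidney and 8.80 in control kidney, a value 0.67 above NTS in NTS/PGE2 kidney and -0.54 for NTS minus control, while 2 others had equal values on all 3 arrays. For NTS against control 4 of the 6 were lower and 0 higher. Adamts3 had 16 probe sets, with mean log2 values between 4.95 and 7.65; 7 were higher and 0 lower on NTS than on control, by at most 0.44, and 8 were equal on all 3 arrays. Adamts17 had 5, with means between 5.79 and 8.83. The averages used for Adamts3 and Adamts17 therefore mix dim and bright probe sets, while all 6 probe sets of Adamts9 were bright.

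Timp1, Timp3 and Timp4 each lie within a synapsin gene in the annotation (Syn1, Syn3 and Syn2). Syn1 read 6.60 on all 3 arrays, where Timp1 had a range of 3.72. Syn2 read 7.79 in NTS/PGE2 kidney, 7.31 in NTS kidney and 7.95 in control kidney, and Syn3 read 8.12 in NTS/PGE2 kidney, 7.80 in NTS kidney and 7.90 in control kidney. These genes were added after their values were seen.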
